A study of Mus musculus with 74 samples.

Results

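Sorted ascending sensory neurons taken 3 days after a sciatic nerve injury (SNI) were compared directly with the same kind of neurons taken 3 days after a spinal cord injury (SCI). The comparison used every sorted library whose title names SNI or SCI at day 3, which gave 24 of the 66 sorted wells and 8 of the 22 sorted mice, out of 74 libraries in the series. Each mouse gave 3 wells, which were summed, so that 4 SNI 3d mice stood against 4 SCI 3d mice. All groups were female mice of the line Thy1-YFP16, aged 10 to 20 weeks, in which the Thy1 promoter drives a yellow fluorescent protein mainly in large-diameter sensory neurons. SNI was a crush of the right sciatic nerve, and SCI a lesion at T9/10 that the labels call a dorsal hemisection and the study's methods a transverse cut of the dorsal column. Dissociated L4 dorsal root ganglia (DRG) were sorted into wells of about 100 YFP-positive cells, and the 4 mice of SNI 1d, the 4 of SCI 1d and the 6 naive mice of the same experiment served as context. The strain label is the same for all sorted wells, while the genotype label carries a number that differs from well to well, also within a mouse. Mice are named here by their label number with A for titles that start with FACS and B for those that start with FACS2018.

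A large-fibre sensory neuron of the DRG sends out a single axon that splits into a peripheral branch to skin and muscle and a central branch that climbs the dorsal columns. A cut of the peripheral branch is known to switch on a growth programme in the cell body, led by transcription factors such as Atf3, Jun, Sox11 and Stat3 and by growth-associated proteins such as Gap43 and Sprr1a. A cut of the central branch is known to evoke a weaker response, and the direct comparison asks how far the same neurons differ between these 2 injuries on the third day.

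The wells differed in their mix of cell type markers. Between 4116561 and 26752588 reads per SNI 3d well and between 11860594 and 41045881 per SCI 3d well lay on genes, which came to 43070113 to 66829030 reads per SNI 3d mouse and 50582929 to 83599972 per SCI 3d mouse. In 8 of the 24 wells, 4 of each injury, the 9 marker genes of satellite glia and Schwann cells took more reads than the 8 neuronal markers, and these wells are called glia-rich. They were well c of SNI 3d mouse A1, well c of SCI 3d mouse B2 and all 3 wells of mouse B1 of each injury. In SNI 3d the glial share was 1.1%, 0.392%, 8.06% and 0.688% of reads in mice A1, A2, B1 and B2, and in SCI 3d it was 0.322%, 0.362%, 3.87% and 4.2%. SCI 3d mouse B1 also had 4.62% of its reads on 6 fibroblast markers and 0.38% on 10 macrophage markers, while the other 7 mice lay between 0.00314% and 0.0604% and between 0.000201% and 0.0171%. The B1 mice had 8353 and 9935 genes with at least 20 reads, against 13885 to 15489 in the other 6. The comparison was therefore made over all wells and over the 16 neuronal wells, in which mouse B1 drops out of each group and 3 mice stand against 3.

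**Figure D1:**
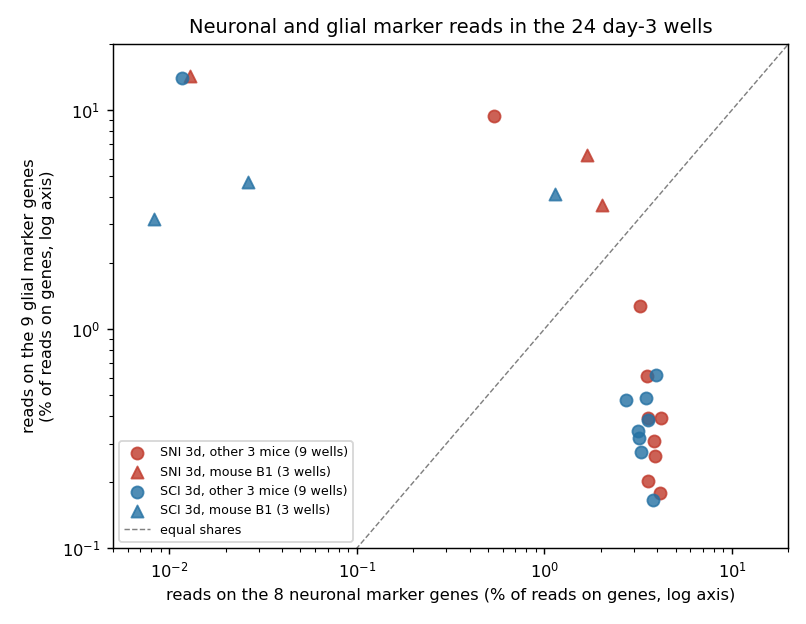
Share of reads on 9 glial marker genes (y axis, percent of reads on genes, log scale) against the share on 8 neuronal marker genes (x axis, same unit, log scale) in each of the 24 wells, coloured by injury, with triangles for mouse B1. The 16 neuronal wells sit together at the lower right, and the 8 glia-rich wells lie above the dashed line of equal shares.

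Few genes differed between the injuries past the spread between mice. Over all wells, 1 gene was higher after SNI than after SCI and 0 were lower, of 23507 genes tested by edgeR's quasi-likelihood test at an adjusted p under 0.1 (0.00425% called). At an unadjusted p under 0.05 stood 1027 genes higher after SNI (4.37% of genes) and 1232 lower (5.24%). The neuronal wells had 15 genes higher after SNI and 4 lower of 22620 tested (0.084% called), and at an unadjusted p under 0.05 stood 1111 genes higher (4.91%) and 748 lower (3.31%). The median standard error of a log2 difference was 1.05 over all wells and 0.88 in the neuronal wells, and DESeq2, with the same factors, called 853 and 588 genes. Leaving out 1 mouse at a time gave 0 calls over all wells without SNI 3d A1, 88 without SNI 3d B1, 32 without SCI 3d A1, 9 without SCI 3d A2, 8 without SCI 3d B2, 3 without SNI 3d B2 and 2 without SCI 3d B1. It gave 0 without SCI 3d A1 or SCI 3d A2, 1 without SNI 3d A1, 11 without SNI 3d B2 and 42 without SNI 3d A2 in the neuronal wells. Within the A mice alone edgeR called 1 gene over all wells and 2 in the neuronal wells, and within the B mice alone 0 over all wells. Since each library pools many cells, fewer cells of a kind and less RNA per cell could not be told apart.

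The gene called over all wells was Gm7361 (chromosome 5, 26257691 to 26264308 on GRCm38), a predicted protein-coding gene. It stood at 16.9, 5.43, 33 and 1.16 CPM (read counts scaled to the size of each library and by TMM) in SNI 3d mice A1, A2, B1 and B2, and at 0.0333, 0.697, 0 and 0.06 CPM in SCI 3d. All SNI 3d mice lay above all SCI 3d mice, with a log2 difference (SNI minus SCI) of 5.88 ± 0.98 (SE) and an adjusted p of 0.0202. Of the 2965 distinct 31-base words in its transcripts, 60.7% also occur in transcripts of other genes, mostly Speer4a, Gm10471 and Gm7347, so that its reads could belong to near-identical copies. The value is uncertain for that reason.

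Behind Gm7361 in the same ranking came 3 genes with all SNI 3d mice above all SCI 3d mice that did not pass. Gm19705, a long intergenic non-coding RNA, had a log2 difference of 3.18 ± 0.62 and an adjusted p of 0.119. Sdk1, a cell adhesion molecule of synapses, differed by 3.67 ± 0.69 (adjusted p = 0.119), and Sbno2, a transcriptional regulator known from cytokine responses, by 3.78 ± 0.74 (adjusted p = 0.128). These genes were ranked among those without overlap between the groups, so the separation is part of how they were chosen. In the neuronal wells Sdk1 differed by 2.25 ± 0.6 (adjusted p = 0.231) and Sbno2 by 3.13 ± 0.64 (adjusted p = 0.103).

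The 150 bases upstream of the RefSeq transcription start of these 4 genes, which lead the ranking, are shown 5′ to 3′ on the gene's strand (GRCm38.p6). They were searched with the rest of the promoter window for TGACTCA, which reads TGAGTCA on the opposite strand, and for TGACGTCA, which reads alike on each strand. These are forms of the site that Jun and Atf3 family factors are known to bind, and each strand was covered. Of the 20 genes ranked first over all wells, 16 had a RefSeq window of 300 bases around the start and 0 of them held such a site, so no base is in capitals. Of all 27025 genes with a window, 7.91% held one. Among the lists described further on, the share was 18.2% (4 of 22) for axotomy-induced genes, 31.2% (5 of 16) for gp130 cytokine signalling and 0% (0 of 20) for regeneration-associated transcription factors. Other lists were above 7.91% too, such as the respiratory chain at 16.7% (3 of 18) and the stress response at 15.8% (3 of 19). Fatty acid synthesis had 15% (3 of 20), macrophages 14.3% (1 of 7) and large-fibre ion channels 0% (0 of 15). Of the genes called in the neuronal wells, 1 of 15 (6.67%) held one.
Gm7361 (chr5:26257612-26257761, plus strand, 46% G or C): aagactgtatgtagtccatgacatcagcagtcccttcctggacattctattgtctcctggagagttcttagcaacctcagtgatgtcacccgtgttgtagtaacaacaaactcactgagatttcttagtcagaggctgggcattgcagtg
Gm19705 (chr1:136683246-136683395, plus strand, 39.3% G or C): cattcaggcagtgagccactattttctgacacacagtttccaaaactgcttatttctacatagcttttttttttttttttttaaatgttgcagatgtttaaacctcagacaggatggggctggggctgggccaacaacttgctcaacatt
Sdk1 (chr5:141241384-141241533, plus strand, 79.3% G or C): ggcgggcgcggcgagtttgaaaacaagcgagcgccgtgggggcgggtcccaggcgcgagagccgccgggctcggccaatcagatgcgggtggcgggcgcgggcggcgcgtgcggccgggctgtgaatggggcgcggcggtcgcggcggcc
Sbno2 (chr10:80102703-80102852, minus strand, 66% G or C): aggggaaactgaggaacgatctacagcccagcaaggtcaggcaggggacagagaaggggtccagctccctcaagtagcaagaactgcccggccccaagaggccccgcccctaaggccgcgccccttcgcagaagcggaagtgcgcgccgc

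In the neuronal wells the genes that rose in SNI 3d over SCI 3d included regulators of transcription and nuclear import. Klf6 (chromosome 13, 5861482 to 5870394), a zinc finger transcription factor known to rise in regenerating neurons, stood at 343, 157 and 261 CPM in SNI 3d mice A1, A2 and B2 and at 42.2, 54.3 and 148 CPM in the SCI 3d mice of the same names. Its groups did not overlap, with SCI 3d mouse B2 just under SNI 3d mouse A2, and the log2 difference was 1.76 ± 0.31 (adjusted p = 0.0612). Over all wells Klf6 was highest in the B1 mice, at 1362 CPM after SNI and 794 CPM after SCI, and the difference there was 0.98 ± 0.48 (adjusted p = 0.531). Ipo5 (chromosome 14, 120911224 to 120947999), an importin that carries proteins into the nucleus, was at 200.1, 139.7 and 169 CPM after SNI and 65.9, 58.5 and 82.2 CPM after SCI. All 3 SNI 3d mice were above all 3 SCI 3d mice, by 1.3 ± 0.22 (adjusted p = 0.0612). Elk3, an ETS-family transcription factor, was at 26.6, 3.94 and 8.99 CPM after SNI and 0.0115, 0.727 and 2.11 CPM after SCI, a difference of 4.14 ± 0.86 (adjusted p = 0.0835).

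Signalling genes formed the next group. Camk4, a calcium/calmodulin-dependent kinase of the nucleus, was at 133, 78 and 122 CPM after SNI and 7.01, 11 and 20.7 CPM after SCI. The lowest SNI 3d mouse was well above the highest SCI 3d mouse, and the log2 difference was 3.17 ± 0.57 (adjusted p = 0.0683). Camk4 also kept its groups apart over all wells, at 109, 72.4, 29.5 and 122 CPM in A1, A2, B1 and B2 of SNI 3d and 6.79, 10.3, 0.253 and 15.6 CPM in SCI 3d. Pde4b, a phosphodiesterase that breaks down cyclic AMP, stood at 253, 82.3 and 163 CPM against 17.2, 28.6 and 29.6 CPM, a difference of 2.72 ± 0.52 (adjusted p = 0.0835). In the glia-rich SNI 3d mouse B1 it was at 0.337 CPM. Phlda1, a pleckstrin homology-like domain protein, was at 77.9, 51.7 and 31.2 CPM after SNI and at 12.7, 3.19 and 10.8 CPM after SCI, and differed by 2.58 ± 0.46 (adjusted p = 0.0683). Grp, the neuropeptide gastrin-releasing peptide, was nearly silent after SCI, with 1, 0 and 7 reads in the SCI 3d mice A1, A2 and B2 against 1427, 324 and 1175 reads in SNI 3d. That was 35.8, 6.17 and 17.1 CPM in SNI 3d and an adjusted p of 0.0544, and SNI 3d mouse B1 again had none.

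Several enzymes passed as well. Lrat, which esterifies retinol, had 1802, 325 and 1235 reads in the SNI 3d mice and 0, 0 and 6 in the SCI 3d mice, with the smallest adjusted p of the neuronal wells (0.0119). The glia-rich B1 mice went the other way, at 0.156 CPM after SNI and 32.7 CPM after SCI, and over all wells the adjusted p was 0.428. Xdh, the xanthine dehydrogenase of purine breakdown, was at 16.9, 23.1 and 8.44 CPM against 0.378, 0.578 and 0.16 CPM (difference 5.32 ± 0.94, adjusted p = 0.0544). Here too SCI 3d mouse B1 stood apart, at 37.7 CPM. Cyp4b1, a cytochrome P450, was at 131, 12.1 and 8.62 CPM against 1.74, 0.0186 and 0.16 CPM (difference 5.79 ± 1.09, adjusted p = 0.0544). Galnt6, which starts mucin-type O-glycosylation, was at 32.6, 8.09 and 11 CPM against 1.01, 0.373 and 1.07 CPM (difference 4.25 ± 0.82, adjusted p = 0.0683). Each of these 4 enzymes, picked for passing the test, had every SNI 3d mouse with neuronal wells above every SCI 3d mouse with neuronal wells. Of all 22620 genes, 1539 did.

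Of the 4 remaining genes that rose, Pcdh15, a cadherin best known from hair cell tip links, was at 11.5, 14 and 8.09 CPM after SNI and 0.447, 1.04 and 0.0267 CPM after SCI (difference 4.28 ± 0.86, adjusted p = 0.0976). Anxa10, an annexin, was at 42.2, 9.96 and 2.57 CPM against 0.813, 0 and 0.0267 CPM (adjusted p = 0.0835). Gm19705 passed here, at 25.5, 31.6 and 32.6 CPM against 0.435, 1.6 and 13.2 CPM (difference 2.95 ± 0.59, adjusted p = 0.0814), and Gm7361 passed again (adjusted p = 0.0544). Its lowest SNI 3d mouse and its highest SCI 3d mouse were close, at 1.16 and 0.745 CPM.

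The 4 genes that fell in SNI 3d against SCI 3d were Hsd17b10, Nwd2, Rbp2 and Chad. Hsd17b10 (chromosome X, 152001845 to 152004442), a mitochondrial dehydrogenase of fatty acid and isoleucine breakdown, was at 37.8, 53.2 and 52.6 CPM after SNI and 172, 126 and 89 CPM after SCI. Its groups did not overlap, and the difference was -1.42 ± 0.27 (adjusted p = 0.0835). Nwd2, a gene of little known function, was at 0, 6.07 and 0.276 CPM against 19.8, 24.2 and 17.1 CPM, a difference of -3.4 ± 0.69 (adjusted p = 0.0835). Rbp2, a cellular retinol-binding protein, was at 0.527, 2.13 and 0 CPM against 15.7, 12 and 1.44 CPM, with an overlap between the groups (difference -3.52 ± 0.71, adjusted p = 0.0835). Chad, a matrix protein first found in cartilage, rested on 2 mice: SCI 3d mice A1 and A2 had 386 and 2690 reads, SCI 3d mouse B2 had 0 and SNI 3d mice A1, A2 and B2 had 0, 27 and 0 (adjusted p = 0.0683).

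Behind them stood genes that were lower in every SNI 3d mouse than in every SCI 3d mouse of the neuronal wells and did not pass. Among them Kcna4, a voltage-gated potassium channel of the A type, was at 0.0251, 1.01 and 0.0145 CPM against 3.81, 14.3 and 13.6 CPM (adjusted p = 0.135). The nuclear factors Nfib and Nfia had log2 differences of -1.34 ± 0.29 and -1.45 ± 0.32 (adjusted p = 0.133 and 0.135). Syt3, a synaptotagmin, differed by -2.28 ± 0.48 (adjusted p = 0.133), and Bfsp1, an intermediate filament protein of the lens, by -3.78 ± 0.83 (adjusted p = 0.129). Haus1, of the augmin complex on microtubules, and Brcc3, a deubiquitinase, had differences of -1.18 ± 0.26 and -0.93 ± 0.21 (adjusted p = 0.135 and 0.178). Over all wells Haus1 was close to level, at 0.17 ± 0.71.

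Camk4, Phlda1, Galnt6, Elk3, Nwd2, Nfia and Haus1 share exon sequence with a gene on the opposite strand, and the library kit does not mark strand, so reads of such a pair could not be told apart. The same holds for Fyb, Rhoq, Kif5b, Jun, Stat3, Hif1a, Itga7, Gadd45a, Uchl1, Jak1, P2rx3, Hmgcs1, Map3k12 and Acss1, which are described further on.

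**Figure D2:**
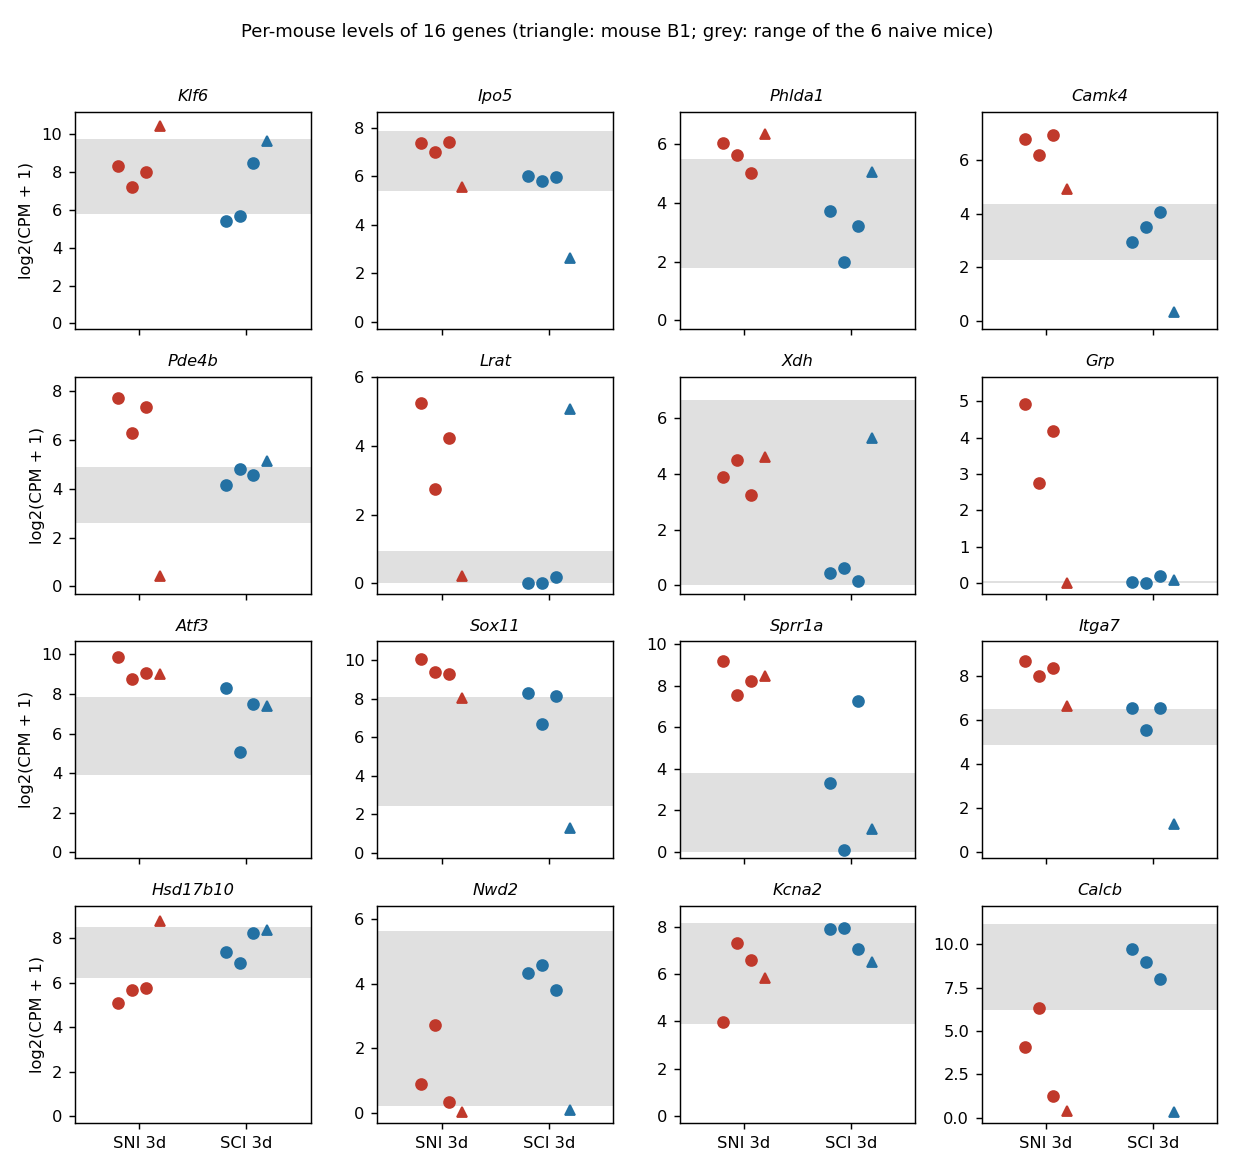
Level of 16 genes as log2(CPM + 1) (y axis) in each of the 4 SNI 3d and 4 SCI 3d mice over all wells (x axis), with triangles for the glia-rich mouse B1 and a grey band for the range of the 6 naive mice. Circles separate by injury for Camk4, Pde4b, Grp and Itga7, while the triangles often lie away from the circles of their own group.

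Over all wells, the ranking of genes with no overlap between the 4 mice of each injury went on with genes that did not pass. On the SNI side, Rhoq, a small GTPase, was at 359, 172, 292 and 257 CPM in mice A1, A2, B1 and B2 and at 106, 55.2, 71.3 and 62 CPM after SCI. That was a difference of 1.85 ± 0.39 (adjusted p = 0.148), with 1.81 ± 0.36 in the neuronal wells (adjusted p = 0.103). Pard6b, a cell polarity protein, differed by 3.58 ± 0.83 (adjusted p = 0.181). Fyb, an adaptor protein best known from T cells, and Lgals4, a galectin, were led by mouse B1, at 96.1 and 22.2 CPM (adjusted p = 0.132 and 0.148), and in the neuronal wells they differed by 5.15 ± 1.35 and 4.27 ± 1.44 (adjusted p = 0.204 and 0.37). Camk4 also stood on this side (adjusted p = 0.148).

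On the SCI side the 10 genes were Dctd, Kirrel, Hhat, Postn, Gm11423, Flrt1, Urod, Ttc38, Kif5b and Ptgr1, and their adjusted p ran from 0.148 to 0.2. For 7 of them, Kirrel, Hhat, Postn, Flrt1, Ttc38, Kif5b and Ptgr1, the highest SCI 3d mouse was B1, which also held the fibroblast and macrophage markers. Postn, a matrix protein of fibroblasts, was at 16.7, 4.98, 42.2 and 1.2 CPM in SCI 3d mice A1, A2, B1 and B2 and at 0.0412, 0.548, 0.104 and 0.291 CPM in SNI 3d, and its groups also stayed apart in the neuronal wells (difference -5.17 ± 1.35, adjusted p = 0.22). Urod, an enzyme of haem synthesis, was at 110.0, 118, 193 and 299 CPM after SCI and 61, 86, 38.1 and 96.3 CPM after SNI, and the difference of -1.4 ± 0.35 over all wells was -0.61 ± 0.26 in the neuronal wells. Kif5b, a kinesin motor of axonal transport, had differences of -0.92 ± 0.24 and -0.57 ± 0.21. The other 7 genes kept their direction with both B1 mice left out, at -8.04 for Dctd, -3.24 for Kirrel, -3.16 for Hhat, -7.31 for Gm11423, -2.77 for Flrt1, -2.85 for Ttc38 and -2.42 for Ptgr1, against -7.58, -6.63, -3.74, -7.66, -4.31, -4.16 and -3.25 over all wells. Without the glia-rich wells Dctd was at -3.95, Hhat at -1.03 and Gm11423 at -3.12. Leaving out SNI 3d mouse B1 alone brought Kirrel past the threshold, at -4.41 with an adjusted p of 0.0857 by edgeR. Such a crossing was not particular to Kirrel. Without SCI 3d mouse A1, edgeR's adjusted p was 0.0878 for Dctd and 0.0977 for Hhat and for Gm11423. Without SCI 3d mouse A2 it was 0.0693 for Dctd.

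Gene lists were then read by how many members stood past an unadjusted p of 0.05 in the neuronal wells, beside 4.91% of all genes higher and 3.31% lower, and by their median log2 difference, beside 0.03 for all genes. Among 25 regeneration-associated transcription factors, 7 were higher after SNI and 0 lower, with a median of 0.46, and 1, Klf6, passed the adjusted test. Over all wells 4 stood higher and 2 lower, with a median of 0.21. The lower pair, Klf4 and Egr1, was high in SCI 3d mouse B1, at 43.8 and 1142 CPM, and differed by 0.12 ± 1.19 and -0.33 ± 0.59 in the neuronal wells.

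Atf3 (chromosome 1, 191170296 to 191218039), the stress-induced factor that marks axotomised neurons, was at 923, 436, 512 and 524 CPM in SNI 3d mice A1, A2, B1 and B2 and at 317, 32.2, 168 and 178 CPM in SCI 3d. All 4 SNI 3d mice were above all 4 SCI 3d mice (exact two-sided permutation p = 0.0286 on log2(CPM + 1), the smallest that 4 mice against 4 allow), while the fit gave 1.79 ± 0.68 and an adjusted p of 0.393, with 1.84 ± 0.85 in the neuronal wells. Sox11, a factor of neuronal growth, was at 1046, 659, 258 and 625 CPM against 311, 103, 1.43 and 279 CPM, and the lowest SNI 3d mouse lay below the 2 highest SCI 3d mice (difference 2.5 ± 0.86, adjusted p = 0.34). Stat3, which carries cytokine signals to the nucleus, was at 301, 260.1, 202 and 300.3 CPM against 158, 151, 119.7 and 175 CPM with no overlap (difference 0.83 ± 0.28, adjusted p = 0.34). Jun was higher in each neuronal-well SNI 3d mouse, at 173, 139 and 108 CPM against 106, 69.1 and 56.2 CPM (difference 0.86 ± 0.34, adjusted p = 0.501). The same held for Smad1, of the BMP pathway, at 90.7, 89.1 and 119 CPM against 46.4, 42.4 and 54.4 CPM (difference 1.06 ± 0.35, adjusted p = 0.391), and for Hif1a, the hypoxia factor, with a difference of 0.97 ± 0.4 (adjusted p = 0.521). Over all wells Smad1 differed by 0.25 ± 0.48 and its mice overlapped.

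Axotomy-induced neuronal genes leaned most clearly to the SNI side. Of 29 tested members, 28 had a positive difference in the neuronal wells, 10 stood higher and 0 lower at an unadjusted p under 0.05, and the median was 1.43. Over all wells the same counts were 26, 13 and 0, with a median of 1.77, and no member passed the adjusted test in either fit. Itga7, the integrin subunit of laminin receptors in growing axons, was at 416, 254, 99.1 and 328 CPM in SNI 3d mice A1, A2, B1 and B2 and at 91.8, 46.1, 1.43 and 93.5 CPM in SCI 3d, with no overlap (difference 2.41 ± 0.62, adjusted p = 0.19), and differed by 2.06 ± 0.46 in the neuronal wells (adjusted p = 0.154). Sprr1a, a small proline-rich protein of regenerating axons, was at 571, 185, 353 and 301 CPM against 9.12, 0.0697, 1.17 and 149.8 CPM. SCI 3d mouse B2 came near the SNI 3d mice, while the other 3 SCI 3d mice were under 10 CPM (difference 3.33 ± 1.23, adjusted p = 0.373, exact permutation p = 0.0286). Csf1, the cytokine that recruits microglia after nerve injury, was at 69, 31, 33.4 and 65.6 CPM against 5.65, 4.89, 0.138 and 23.3 CPM (difference 2.83 ± 1.02, adjusted p = 0.366).

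Cacna2d1, the calcium channel subunit that gabapentin binds, was at 495, 332 and 403 CPM in the neuronal wells after SNI and at 84.5, 82.3 and 196 CPM after SCI (difference 1.83 ± 0.59, adjusted p = 0.37). Cd44, a hyaluronan receptor, was at 206, 105 and 166 CPM against 7.67, 6.11 and 52.6 CPM in these wells, and SCI 3d mouse B1 held 244 CPM (difference 3.28 ± 0.98, adjusted p = 0.348). Gadd45a, of the DNA damage response, ran at 512, 249 and 117 CPM against 180.0, 19.8 and 26.8 CPM, with SCI 3d mouse A1 inside the SNI range (adjusted p = 0.53). Il6 was low, with 881, 205 and 239 reads after SNI and 0, 50 and 0 after SCI (adjusted p = 0.307). Gap43 and Gal varied too widely within each injury to be told apart. Gap43 was at 2075, 963, 585 and 1053 CPM over all wells against 75.2, 487, 183 and 844 CPM (adjusted p = 0.705), and Gal, the neuropeptide galanin, at 0.989, 179.8, 199 and 124 CPM against 0.288, 19.8, 0.529 and 0.52 CPM (adjusted p = 0.477).

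Growth cone and cytoskeleton genes stood higher after SNI in 8 of 28 cases and lower in 0 in the neuronal wells, with a median of 0.58 (over all wells 9, 0 and 0.75). Pfn1, the actin-binding profilin, was at 106, 90.3 and 49.4 CPM against 30.5, 31.3 and 27.4 CPM (difference 1.47 ± 0.33, adjusted p = 0.165), and Crmp1, of semaphorin signalling, at 123, 122 and 108 CPM against 52.5, 36.6 and 82.3 CPM (difference 1.1 ± 0.35, adjusted p = 0.362). Tubulin genes lay on the same side: Tuba1c differed by 1.67 ± 0.53, Tubb6 by 1.72 ± 0.76, Tubb2a by 0.97 ± 0.39 and Tubb3 by 0.6 ± 0.22, none of them past the adjusted test. Stmn2, the microtubule regulator of axons, was at 9633, 5384 and 7358 CPM against 3059, 3582 and 5525 CPM, with the highest SCI 3d mouse inside the SNI range (difference 0.89 ± 0.36, adjusted p = 0.522).

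Tubb3, Stmn2 and Uchl1 are also among the 8 genes that served to tell neuronal wells. There Uchl1, a ubiquitin hydrolase of neurons, differed by 0.5 ± 0.19 (adjusted p = 0.468), while Snap25, of the synaptic vesicle fusion machinery, was lower in every SNI 3d mouse, at 3662, 6922 and 7233 CPM against 10818, 10969.7 and 9139 CPM (difference -0.79 ± 0.2, adjusted p = 0.209). The median over these 8 genes was 0.07.

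In the list of gp130 cytokine signalling, the route by which Il6-type cytokines reach Stat3, 4 of 18 genes stood higher after SNI and 0 lower in the neuronal wells, with a median of 0.81 (3, 1 and 0.43 over all wells). Jak2, the kinase on the receptor, was at 27.1, 14.4 and 23.3 CPM against 1.16, 7.94 and 5.31 CPM (difference 2.26 ± 0.55, adjusted p = 0.204), but 70.7 CPM in SCI 3d mouse B1. Jak1 had a difference of 0.59 ± 0.3 (adjusted p = 0.641). Il6, Stat3 and Il6st, which encodes the shared receptor gp130, were the other members at an unadjusted p under 0.05.

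Genes of the large-fibre phenotype leaned the other way. Of 26 large-fibre ion channel genes, 0 stood higher after SNI and 4 lower in the neuronal wells, with a median of -0.45 (over all wells 0, 4 and -0.32). Kcna2, a potassium channel of the juxtaparanode, was at 13.9, 171 and 97.2 CPM against 246, 260.1 and 175 CPM (difference -1.33 ± 0.51, adjusted p = 0.478), and SNI 3d mouse A1 was far below the rest. Kcnt1, a sodium-activated potassium channel, was at 0.351, 5.35 and 0.0145 CPM against 9.49, 11 and 6.41 CPM (difference -2.34 ± 0.91, adjusted p = 0.481). Among 22 genes of proprioceptor and mechanoreceptor identity, 0 stood higher and 9 lower, with a median of -0.61 (over all wells 0, 5 and -0.52). Ldhb, a lactate dehydrogenase subunit of large neurons, was at 672, 995 and 894 CPM against 1761, 1190.4 and 1289 CPM with no overlap (difference -0.72 ± 0.22, adjusted p = 0.354). Cadps2, of dense-core vesicle release, was at 1.43, 7.03 and 0.0291 CPM against 36.7, 16.5 and 41.1 CPM, and Necab2, a calcium-binding protein, at 0, 1.37 and 0.204 CPM against 3.47, 5.78 and 3.12 CPM (adjusted p = 0.362 and 0.391).

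Nociceptor markers, which large YFP neurons should hold little of, had a median of -1.48 over 12 genes in the neuronal wells. Of these, 8 had a negative and 4 a positive difference, and 0 stood higher and 3 lower at an unadjusted p under 0.05 (over all wells 10, 2, 0 and 3, with a median of -2.27). Summed over the list, they took 0.0239%, 0.0464%, 0.000253% and 0.0422% of reads in SNI 3d mice A1, A2, B1 and B2 and 0.0987%, 0.309%, 0.00315% and 0.137% in SCI 3d. Calcb, which encodes a calcitonin gene-related peptide, was at 19, 84.4 and 1.34 CPM against 879, 542 and 338 CPM in the neuronal wells (difference -4.09 ± 1.12, adjusted p = 0.275). P2rx3, an ATP-gated channel of nociceptors, was at 2.71, 1.69 and 0.0873 CPM against 2.99, 59.8 and 114 CPM (difference -5.33 ± 1.83, adjusted p = 0.406). On the other side, Tac1, the precursor of substance P, had a mean of 166 CPM after SNI and 46.3 CPM after SCI (difference 2.28, adjusted p = 0.714), and Trpv1, the capsaicin receptor, had means of 10.5 and 3.94 CPM (difference 2.02, adjusted p = 0.652). Whether the SNI 3d wells held fewer nociceptors was not tested, nor was any link of these markers to the other differences of the neuronal wells.

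The lipid lists had small medians. Among 22 cholesterol synthesis genes, 18 had a positive difference in the neuronal wells, 4 stood higher after SNI and 0 lower at an unadjusted p under 0.05, and the median was 0.24 (over all wells 15, 2, 0 and 0.30). Hsd17b7, a ketosteroid reductase of the late pathway, was at 562, 286, 369 and 786 CPM in SNI 3d mice A1, A2, B1 and B2 and at 74.6, 175, 59.7 and 239 CPM in SCI 3d, with no overlap (difference 1.94 ± 0.5, adjusted p = 0.195). Mvk, the mevalonate kinase, was at 115, 65.3 and 53.6 CPM against 44.6, 41.6 and 31.5 CPM in the neuronal wells (adjusted p = 0.424). Hmgcs1 and Sqle, at early and late steps of the pathway, overlapped between the injuries, with differences of 0.13 ± 0.25 and 0.6 ± 0.3. Of 24 fatty acid synthesis genes, 17 had a positive difference, 3 stood higher and 2 lower, and the median was 0.29 (over all wells 11, 3, 0 and -0.01). Fasn (chromosome 11, 120805846 to 120824547), the fatty acid synthase, was at 64, 59.3, 57.5 and 79.4 CPM in SNI 3d mice A1, A2, B1 and B2 and at 36.5, 32, 18.5 and 11.4 CPM in SCI 3d. All SNI 3d mice lay above all SCI 3d mice (exact permutation p = 0.0286), as in 251 of all 23507 genes. The fit gave 1.43 ± 0.5 with an adjusted p of 0.347. Acly, which makes the acetyl-CoA that Fasn uses, differed by 0.86 ± 0.3 (adjusted p = 0.354).

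Stress and kinase lists had small medians in the neuronal wells. Of 21 genes of the integrated stress and unfolded protein response, 0 stood higher and 0 lower in the neuronal wells, with a median of -0.13 (1, 1 and -0.30 over all wells). Of 17 genes of DLK and JNK signalling, which relays axon injury to the nucleus, 3 stood higher and 0 lower, with a median of -0.06 (1, 0 and -0.09 over all wells). Map3k12, which encodes DLK itself, overlapped between the injuries at 10.1, 10.1 and 8.35 CPM against 10.3, 16 and 3.6 CPM (difference -0.11 ± 0.57). Mapk14, the stress kinase p38 alpha, was at 62.3, 36.3 and 50.5 CPM against 21.2, 18.3 and 14.1 CPM in the neuronal wells (difference 1.44 ± 0.36, adjusted p = 0.204), with 0.363 CPM in SNI 3d mouse B1 and 44.3 CPM in SCI 3d mouse B1. Map2k7, a kinase of Jun N-terminal kinases, had no overlap in either set of wells (difference 1.5 ± 0.54 over all wells, adjusted p = 0.366). Of 29 nuclear-encoded respiratory chain genes, 26 had a negative difference in the neuronal wells, with 0 higher and 5 lower at an unadjusted p under 0.05 and a median of -0.26 (over all wells 0, 0 and -0.15). Ndufb9 and Uqcrq, of complexes I and III, differed by -0.59 ± 0.21 and -0.58 ± 0.22.

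Lists of other cell types moved with the wells. Over all wells and in the neuronal wells the median differences were -0.76 and -0.27 for satellite glia and Schwann cells, -3.49 and 0.39 for macrophages, -2.62 and -0.37 for fibroblasts, -4.29 and -2.18 for endothelial cells and pericytes, 4.85 and 0.27 for red blood cells and -0.20 and -0.87 for neutrophils. The value of 4.85 was that of Alas2, with an SE of 5.405 and means of 0.166 CPM after SNI and 0.155 CPM after SCI. Both neutrophil values were those of S100a8, which had a mean of 0 CPM in each group. The red blood cell and neutrophil medians therefore show no difference in these cells. At an unadjusted p under 0.05 over all wells stood 4 of 10 macrophage genes, 2 of 6 fibroblast genes and 2 of 4 endothelial and pericyte genes, all lower after SNI. Without the glia-rich wells these counts were 0 of 6, 0 of 6 and 1 of 4. The macrophage, fibroblast and endothelial lists were at or near 0 there, with at most 0.00230%, 0.0423% and 0.00143% of the reads of any neuronal day-3 well.

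**Figure D3:**
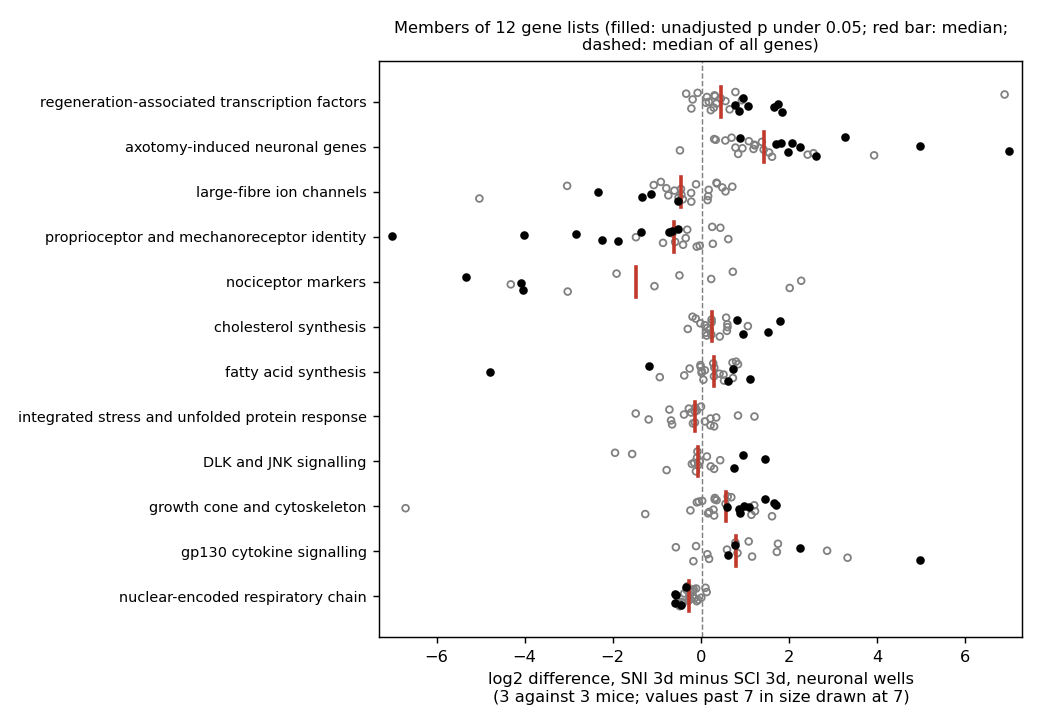
Log2 difference (x axis, SNI 3d minus SCI 3d, 3 against 3 mice, neuronal wells) of every tested member of 12 gene lists (y axis), filled where the unadjusted p was under 0.05, with a red bar at the list median and a dashed line at the median of all genes, and the farthest values drawn at the edge. The axotomy-induced list has its median at 1.43, and the channel, identity and nociceptor lists have theirs at -0.45, -0.61 and -1.48.

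The difference between the injuries was then set beside that on day 1, which came from other mice. On day 1, SNI and SCI differed in 384 genes in the neuronal wells (1.7% called), 286 higher after SNI and 98 lower, and over all wells in 43 (0.183% called), 32 higher and 11 lower. Of the 286, 256 were also on the SNI side on day 3, 130 of them at an unadjusted p under 0.05, and the median difference went from 1.86 on day 1 to 0.85 on day 3. For comparison, 51.6% of all genes lay on the SNI side on day 3. Of the 98 lower genes, 88 were again lower on day 3, 39 at an unadjusted p under 0.05, with medians of -2.17 and -0.90. All of these genes were chosen for passing on day 1, a choice that enlarges their day 1 medians. The smaller medians on day 3 therefore cannot show that the difference shrank. Called on both days were 7 of the genes that rose and 1 that fell, Nwd2. Over all wells 26 of the 32 and 10 of the 11 kept their side on day 3, 16 and 3 of them at an unadjusted p under 0.05, and 0 were called on both days.

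Among the genes above, Klf6 differed by 1.82 ± 0.26 on day 1, Ipo5 by 1.16 ± 0.2, Camk4 by 2.58 ± 0.49, Phlda1 by 2.12 ± 0.45 and Xdh by 3.24 ± 0.8, each past edgeR's adjusted test on that day as on day 3. Larger gaps between the days lay elsewhere. Sprr1a differed by 9.75 ± 2.16 on day 1 and 2.61 ± 1.24 on day 3, and Tuba1c by 4.74 ± 0.68 and 1.67 ± 0.53. Hsd17b10 and Nfib were level on day 1 (-0.12 ± 0.23 and -0.12 ± 0.25) and lower after SNI on day 3, while Sbno2 and Pcdh15 were at 0.51 ± 0.52 and 0.85 ± 0.68 on day 1 and at 3.13 ± 0.64 and 4.28 ± 0.86 on day 3. The test of the difference between days called 0 genes in the neuronal wells with edgeR (0% called), with 1024 at an unadjusted p under 0.05, so none of these shifts passed. Over all wells edgeR called 2 genes (0.00851%), Axl and Acss1, with 1424 at an unadjusted p under 0.05, and DESeq2 called 668.

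Axl, a receptor tyrosine kinase of macrophages and glia, was at 0.144, 0.0884, 34.5 and 0.174 CPM in SNI 3d mice A1, A2, B1 and B2 and at 0.0333, 0, 157 and 0.16 CPM in SCI 3d, with B1 the only mouse of either injury above 1 CPM. Acss1, the mitochondrial acetyl-CoA synthetase, was at 0.0206, 0, 0.259 and 0.174 CPM against 1.79, 0.0174, 40.2 and 55.2 CPM and was led by SCI 3d mice B1 and B2, the SCI 3d mice with glia-rich wells. In the neuronal wells of SCI 3d mouse B2 it was at 0.0534 CPM.

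**Figure D4:**
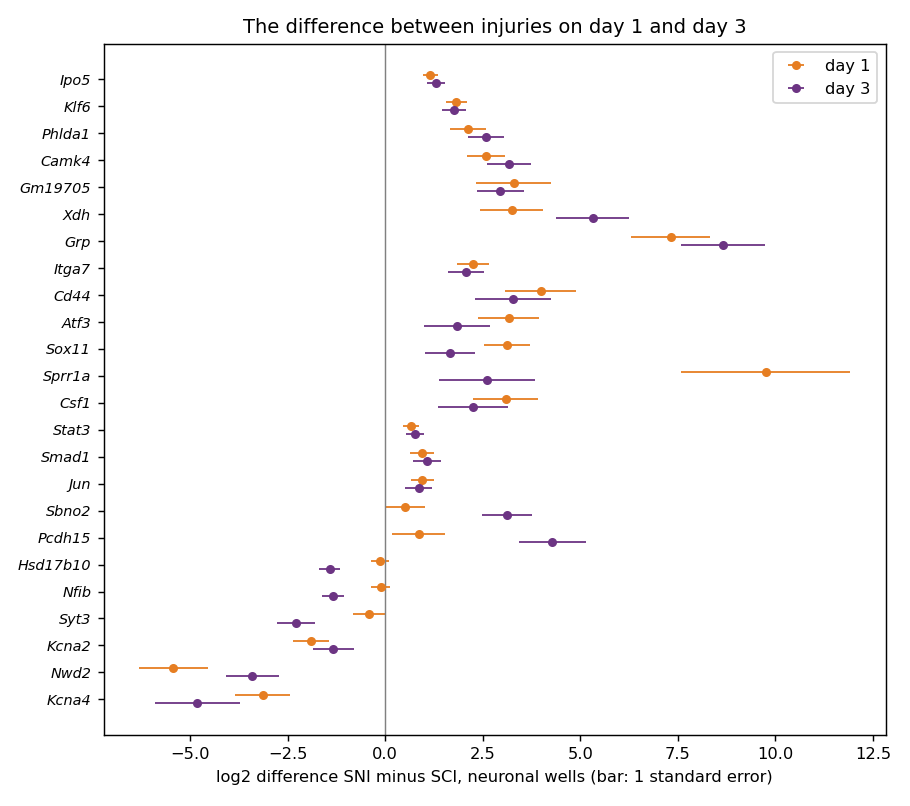
Log2 difference SNI minus SCI in the neuronal wells (x axis, points with bars of 1 standard error) for 24 named genes (y axis), on day 1 in orange and on day 3 in purple. Each gene lies on the same side of 0 on both days, while Hsd17b10 is at -0.12 on day 1 and -1.42 on day 3.

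The 6 naive mice place these levels. Both naive B mice had 2 glia-rich wells, which left 1 neuronal well of each, while naive A mice had 0 or 1. In 1 of these neuronal wells, nociceptor markers took 4.15% of reads, neuronal markers 1.4% and glial markers 0.953%. Against naive mice, SNI 3d had 1031 called genes in the neuronal wells (4.56%), 824 higher and 207 lower, and SCI 3d had 4 (0.0177%), all higher. Over all wells these counts were 488 (2.08%), 279 higher and 209 lower, and 19 (0.0808%), 18 higher and 1 lower. The 2 comparisons share their naive mice, and the median over all genes was 0.31 in the first and 0.21 in the second. Axotomy-induced genes had medians of 2.53 after SNI (15 of 29 called higher) and 0.78 after SCI (0 called). Growth cone genes had 0.51 (8 of 28 called higher) and 0.14, and regeneration-associated factors 0.61 (5 of 25 called higher) and 0.06. For proprioceptor and mechanoreceptor genes the medians were 0.21 and 0.86, and for the large-fibre channels 0.15 and 0.44, where over all wells the channel medians were negative, at -0.32 and -0.12.

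Single genes were placed the same way. Klf6 differed from naive by 1.43 ± 0.25 after SNI and by -0.33 ± 0.27 after SCI, Ipo5 by 1.58 ± 0.19 and 0.28 ± 0.2, and Phlda1 by 2.57 ± 0.39 and -0.01 ± 0.44. Naive mice had a median of 16.5 CPM (range 4.09 to 65) of Camk4 and 26.6 CPM (range 5.87 to 48.1) of Pde4b, near the SCI 3d levels. Hsd17b10 differed from naive by -1.17 ± 0.25 after SNI and 0.24 ± 0.23 after SCI. For Rbp2 and Chad it was SCI 3d that stood away from naive mice, which had medians of 0.51 CPM (range 0 to 1.7) and 0.402 CPM (range 0 to 2.39), though their groups overlapped.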

How the data were processed

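RNA from wells of about 100 sorted cells was amplified with a SMARTer Ultra Low kit, which does not mark strand. The authors ran Cutadapt, PRINSEQ, the aligner STAR on mm10 and the counter HTSeq, per the labels, and deposited whole-number counts per gene, 1 file per well. Here 5 summary lines per file were left out, reads were added up over the 3 wells of each mouse, and 53274 of 53379 identifiers took a GENCODE symbol.

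Any gene that reached 20 reads in 1 or more of the 22 mice was kept, scaled by TMM and fitted over all 5 sorted groups with 2 RUVr factors (factors of unwanted variation from residuals). The quasi-likelihood test of edgeR 4.0.16 (limma 3.58.1, R 4.3.3) was used at a Benjamini-Hochberg adjusted p under 0.1, and DESeq2 1.42.0 as an alternative. The standard error given with a log2 difference was worked back from edgeR's test. It is the size of the difference divided by the square root of the F statistic. The fit without glia-rich wells was planned, and its gene ranking was added after seeing the data. Single genes were also tested by exact two-sided permutation (Python 3.11.15, numpy 2.4.6) on log2(CPM + 1). The code was tested on simulated data.

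Named genes were, per direction, the 10 of smallest p without overlap between groups, all genes that passed, and up to 6 of smallest p per list, and 2 genes that met the rule are not reported here. The members and the 19 lists were chosen with earlier results of these data known. Whole-DRG libraries, 7 tables with the authors' own fold changes and p-values, and 123 per-sample columns were not used. Depth was 30518187 to 83599972 reads per mouse. No 2 wells had identical counts.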

Additional observations from a re-analysis of the deposited data

Results flagged for a closer look

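Mouse B1 of each injury stood apart by Dixon's test, in which the gap of 1 mouse to its nearest neighbour, divided by the range of the 4 mice, passed the 95% critical value. SNI 3d mouse B1 did so for the neuronal marker share (1.23% of reads), the glial share (8.06%), the macrophage share (0.0171%) and the number of genes with at least 20 reads (8353). SCI 3d mouse B1 did so for the macrophage share (0.38%) and the fibroblast share (4.62%). Of 180 gene groups tested over all wells, 32 had such a mouse, and in 21 it was a B1 mouse. Chance alone flags about 1 in 20 groups. In SNI 3d mouse B1 the gene levels that stood apart were 9.99 CPM of Gm19705, 0.13 CPM of Hhat, 0 CPM of Pcdh15, 11.4 CPM of Cacna2d1, 0.363 CPM of Mapk14, 0.0778 CPM of Map3k12, 15.3 CPM of Crmp1, 0.13 CPM of Jak2, 34.5 CPM of Axl and 698 CPM of Egr1. In SCI 3d mouse B1 the gene levels that stood apart were 86.7 CPM of Kirrel, 44.1 CPM of Ttc38, 83.9 CPM of Ptgr1, 32.7 CPM of Lrat, 37.7 CPM of Xdh, 5.18 CPM of Ipo5, 0.069 CPM of Nwd2, 0.046 CPM of Haus1, 0.184 CPM of Mvk, 1470.0 CPM of Tubb3 and 157 CPM of Axl.

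SNI 3d mouse A1 stood apart for Gal, at 0.989 CPM. SNI 3d mouse A2 stood apart for Chad (0.478 CPM), Kcna4 (0.938 CPM) and Kcnt1 (4.97 CPM). SCI 3d mouse A1 stood apart for Cyp4b1 (1.69 CPM), Anxa10 (0.788 CPM) and Gadd45a (174 CPM). SCI 3d mouse A2 stood apart for Gm7361 (0.697 CPM), Lgals4 (0.209 CPM), Gal (19.8 CPM) and Il6 (0.871 CPM).

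The difference between SNI and SCI itself differed between the days for 2 genes over all wells by edgeR's interaction test. The day 3 difference minus the day 1 difference was -8.07 on the log2 scale for Axl and -11.88 for Acss1, each with an adjusted p of 0.0868. In the neuronal wells 0 genes passed this test.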

How the results depend on the processing

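The count of genes that differed between SNI 3d and SCI 3d over all wells, 1 as reported, was 853 with DESeq2, 12 with at least 20 reads in at least 4 mice, 6 with RUVr factors that were not centred, 3 without factors, 19 without the glia-rich wells and 10 without both B1 mice (added after seeing the data). It was 0 with edgeR's legacy dispersion, with only the 8 mice and within the B mice, and ran from 0 to 88 when 1 mouse was left out. In the neuronal wells the 19 calls became 588 with DESeq2, 30 with the filter at 4 mice, 9 with factors not centred, 6 with 1 factor, 6 without a count filter, 4 without factors, 2 within the A mice, 1 with the title prefix as covariate, 1 at an adjusted p under 0.05 and 0 with legacy dispersion or only the 6 mice. Leaving out 1 mouse gave 0 to 42. All these alternatives of the neuronal wells were added after seeing the data. The 2 genes whose difference changed between days became 668 with DESeq2, 1 with factors not centred and 0 at an adjusted p under 0.05, with DESeq2 size factors, legacy dispersion, no count filter, 1 factor, no factors, the title prefix, within either set of mice, without the glia-rich wells and without both B1 mice, and 0 to 18 with 1 mouse left out. The cause was not tested.

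With the replicate block, the number of calls was 0 over all wells with or without RUVr factors, 4 in the neuronal wells, and 0 for the difference between days. Deviations of same-numbered mice correlated at 0.179, 0.322, 0.414 and 0.0735 for A1, A2, B1 and B2, and at 0.023, 0.116 and 0.0891 for A1, A2 and B2 in the neuronal wells. Those of different-numbered mice ran from -0.34 to 0.251 over all wells. In the neuronal wells they ran from -0.108 to 0.011, below every same-numbered value. Whether the numbers pair the mice was not tested, and the reported fits did not pair them. Of the 8 genes chosen for the exact permutation count, 2 (Atf3 and Sprr1a) were at the smallest p, which a gene reaches when its groups do not overlap. Over all wells, 457 of 23507 genes had no overlap. Without the glia-rich wells 3 mice against 3 cannot go below 0.1, so no count was made.

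Of 90 genes followed, 75 kept their direction over all wells under all 25 alternatives and 86 in the neuronal wells under all 18. Within the B mice the log2 differences turned to -0.079 for Klf6, -0.83 for Pde4b, -0.62 for Smad1, -0.17 for Cd44, -1.86 for Mapk14, -0.12 for Pfn1, -2.97 for Jak2, 0.22 for Ndufb9, 0.24 for Uqcrq and 1.26 for Map3k12. Within the A mice they turned to -0.43 for Haus1, 2.37 for Axl and 0.17 for Klf4. Without the glia-rich wells they turned to -1.19 for Haus1, 1.89 for Axl and 0.12 for Klf4, and without both B1 mice to -0.72 for Haus1, -0.12 for Hmgcs1 and 1.11 for Axl. With 1 mouse left out, Chad ran from -20.23 to 6.55 and turned without SCI 3d A2 and SNI 3d B1. Haus1 ran from -0.40 to 0.53 and turned without SCI 3d B1 and SNI 3d B1. Smad1 ran from -0.009 to 0.71 and turned without SNI 3d B2. Hmgcs1 ran from -0.18 to 0.54 and turned without SNI 3d B1. Mapk14 ran from -0.10 to 1.05 and turned without SCI 3d A2. Map3k12 ran from -0.58 to 0.41 and turned without SCI 3d A1, SCI 3d A2 and SNI 3d B1. Axl ran from -4.6 to 1.75 and turned without SCI 3d B1. Hmgcs1 in the neuronal wells ran from -0.12 to 0.27 and turned without SCI 3d A1 and SNI 3d B2. Map3k12 in the neuronal wells ran from -0.48 to 0.33 and turned without SCI 3d A2. Acss1 in the neuronal wells ran from -5.75 to 2.00 and turned without SCI 3d A1. Klf4 in the neuronal wells ran from -0.11 to 0.37 and turned without SCI 3d A2 and SNI 3d A1. Without factors Jak2 turned to -0.47, and to -0.49 with only the 8 mice. Axl turned to 0.43 with DESeq2 and 0.34 with legacy dispersion. Map3k12 turned to 0.13 with factors not centred and to 0.039 with the replicate block and no factors. In the neuronal wells Map3k12 turned to 0.014 with the replicate block and Klf4 to -0.029 with the title prefix. The exact permutation p was 0.971 for Jak2 with a pseudocount of 0.1 and 0.8 for Mapk14 with a pseudocount of 10, where the difference had changed sign.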
